A study of Drosophila melanogaster with 3 samples.

Results

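The LIM homeodomain genes tup (tailup, the fly Islet gene), ap (apterous), Awh (Arrowhead), Lim1 and Lim3 and the zinc finger homeodomain genes zfh1 and zfh2 were examined in ChIP-seq of unpg, itself a homeodomain transcription factor. ChIP-seq maps where a protein is found on DNA by sequencing the fragments precipitated with it. The 7 genes were chosen by name from the 13945 protein-coding genes of the annotation, with earlier results of these data known. Peaks were given to a gene when the summit, the highest point of the peak, lay inside the gene. They were also given to it when one of its transcription starts was the nearest start of a protein-coding gene within 20 kb. This gave 24 of the 7176 peaks in the list that the authors selected by the irreproducible discovery rate (IDR), a measure of rank agreement between replicates. In the longer list called on all replicates together, 112 of 30000 peaks belonged to the 7 genes, as did 106, 99 and 100 of the 30000 peaks of replicates 3, 4 and 5.

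The material was whole embryos (Drosophila melanogaster, age 4 to 16 hours) of a stable transgenic line carrying unpg with GFP at its C terminus, in 1 group of 3 biological replicates. The sample descriptions name an anti-GFP antibody, whereas the antibody field names unpg. Chromatin was sonicated to a size range of 200 to 800 bp, and a control library was shared. No untagged embryos were used here, there was no second group, and a whole embryo mixes cell types, so neither dependence on the tag nor the cell type of a peak was tested. The lists hold no read counts, so sequencing depth is unknown, and a signal score gives only a peak's rank within its own list, rank 1 being the strongest.

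LIM homeodomain proteins carry LIM domains, zinc-binding folds that contact other proteins, beside the DNA-binding homeodomain. They work in complexes built on the bridging protein Chi (Chip, the fly LIM domain binding protein) and its partner Ssdp, and in the nervous system the combination of LIM homeodomain proteins in a neuron is known to set its identity and the path of its axon. The zfh1 and zfh2 proteins have both homeodomain sequence and zinc fingers of the kind that bind DNA. zfh1 belongs with the vertebrate ZEB repressors, which bind E-box words such as CAGGTG, whereas many homeodomains bind words around a TAAT core.

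The sequences below are the 50 bases on each side of 10 of the 24 IDR summits, from the plus strand of the Release 6 genome (the dm6 build), 5′ to 3′. They comprise the strongest peak of each of the 6 genes that had one and the 4 windows that held TAATTA. Capitals mark TAAT on either strand and, in the zfh2 window of rank 560, CAGGTG read on the opposite strand.
zfh1, peak of rank 309, chr3R:30781715-30781815: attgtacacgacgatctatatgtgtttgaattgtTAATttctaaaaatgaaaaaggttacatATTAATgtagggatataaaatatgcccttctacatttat
zfh2, peak of rank 560, chr4:497839-497939: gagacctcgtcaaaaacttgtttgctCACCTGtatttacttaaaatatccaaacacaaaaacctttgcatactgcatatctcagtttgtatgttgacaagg
tup, peak of rank 1196, chr2L:18890207-18890307: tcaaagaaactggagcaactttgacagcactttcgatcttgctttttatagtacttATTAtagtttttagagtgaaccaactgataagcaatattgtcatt
Awh, peak of rank 1832, chr3L:3862587-3862687: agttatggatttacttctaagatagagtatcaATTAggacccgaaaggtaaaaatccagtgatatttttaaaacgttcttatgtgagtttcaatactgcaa
Lim1, peak of rank 1958, chrX:8777248-8777348: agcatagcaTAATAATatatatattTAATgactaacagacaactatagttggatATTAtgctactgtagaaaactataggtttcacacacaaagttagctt
Lim1, peak of rank 2058, chrX:8774194-8774294: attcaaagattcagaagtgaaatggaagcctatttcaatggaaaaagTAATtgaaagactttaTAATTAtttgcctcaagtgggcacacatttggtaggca
zfh2, peak of rank 5142, chr4:501575-501675: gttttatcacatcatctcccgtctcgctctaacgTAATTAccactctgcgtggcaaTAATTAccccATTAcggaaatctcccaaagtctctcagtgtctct
Awh, peak of rank 5391, chr3L:3863590-3863690: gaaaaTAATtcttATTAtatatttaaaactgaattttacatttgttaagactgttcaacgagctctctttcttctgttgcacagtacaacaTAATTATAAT
Lim3, peak of rank 5731, chr2L:19091422-19091522: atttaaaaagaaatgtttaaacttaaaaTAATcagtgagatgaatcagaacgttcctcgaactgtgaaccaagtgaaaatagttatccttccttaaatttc
tup, peak of rank 6810, chr2L:18895125-18895225: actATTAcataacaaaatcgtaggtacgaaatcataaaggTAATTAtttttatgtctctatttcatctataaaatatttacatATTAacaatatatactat

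The window of the strongest zfh1 peak held TAAT 3 times and no TAATTA, and that of the strongest zfh2 peak held no TAAT. In the zfh2 window of rank 5142, which lies at the gene's start, TAATTA occurred at a pair of places, centred at -13.5 and 8.5 bp from the summit along the plus strand. Its centre was at -7.5 bp in the tup window of rank 6810, at 15.5 bp in the Lim1 window of rank 2058 and at 43.5 bp in the Awh window of rank 5391. The tup window of rank 6810 also had the lowest GC content of the 24, 19.8%. The zfh2 peak of rank 5142 and the tup peak of rank 6810 were 364 bp wide, the commonest width in the IDR list. Their summits lay at the middle of the peak, so the distances given for them are from that middle. Of the 24 peaks 5 (20.8%) had this width, against 15.1% of all IDR peaks. The others were the zfh1 peaks of ranks 6077 and 6735 and the Lim3 peak of rank 6429. Their summits also lay at the middle, from which their positions and windows are taken.

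Of the 7 genes, 6 had at least 1 IDR summit. Among all protein-coding genes 29.1% had one, but the 7 genes have long catchments, the catchment being the DNA from which summits go to the gene. It includes the gene's own span, which can hold starts of other coding genes, as at Lim3. Of the 1050 genes whose catchment was at least 28605 bp, the shortest among the 7, 60.6% had an IDR summit. zfh1 had 6 summits, tup and Awh 5 each, Lim1 and zfh2 3 each, Lim3 2 and ap none. Per 10 kb of catchment Awh had 1.75 summits, zfh1 1.55, tup 1.20, Lim3 0.666, zfh2 0.660 and Lim1 0.458, against 0.448 over the genes with long catchments. Of these genes, 5.52% were as densely covered as Awh or more so, 8.0% as zfh1 and 14.5% as tup, while the density of Lim1 was reached by 38.2%. In the pooled list all 7 genes had a summit, where 47.4% of all protein-coding genes and 74.6% of those with long catchments did. Because the genes were chosen with earlier results of these data known, these comparisons are a description, and no test was made.

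**Figure D1:**
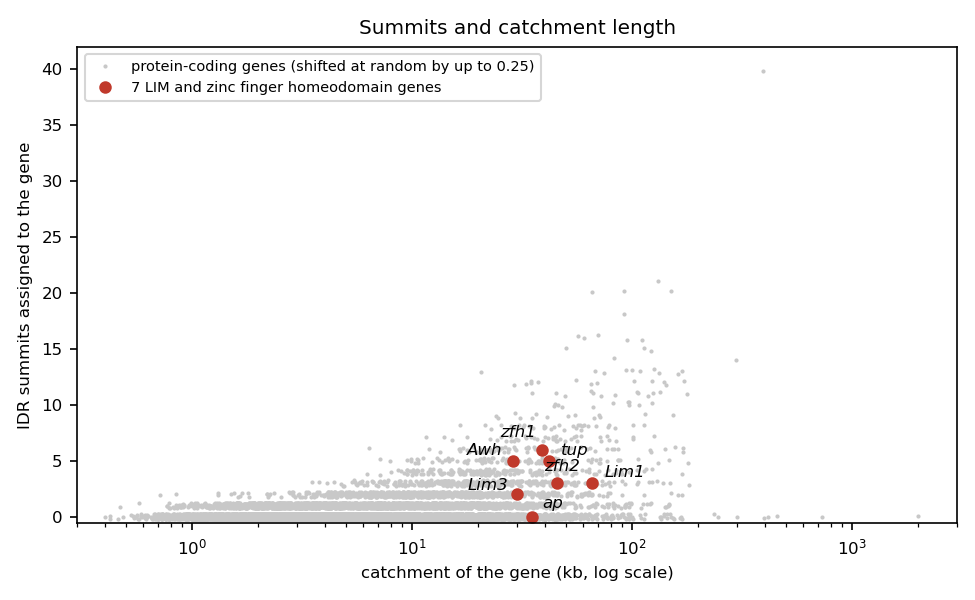
Number of IDR summits assigned to each protein-coding gene (vertical axis) against the length of its catchment in kb (horizontal axis, log scale), with the 7 genes in red and all protein-coding genes in grey. zfh1 with 6 summits and Awh and tup with 5 lie above many genes of like catchment, Lim1 with 3 has the longest catchment of the 7, and ap lies at 0.

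The counts were similar in the single replicates. Among the 7176 strongest peaks of each replicate, a cut at the length of the IDR list, the 7 genes had 23, 21 and 22 summits in replicates 3, 4 and 5 (22.0 ± 1.00, SD, n = 3). Each of tup, Awh, Lim1, zfh1 and zfh2 had at least 2 in every replicate, Lim3 had 2, 2 and 0, and ap had none.

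**Figure D2:**
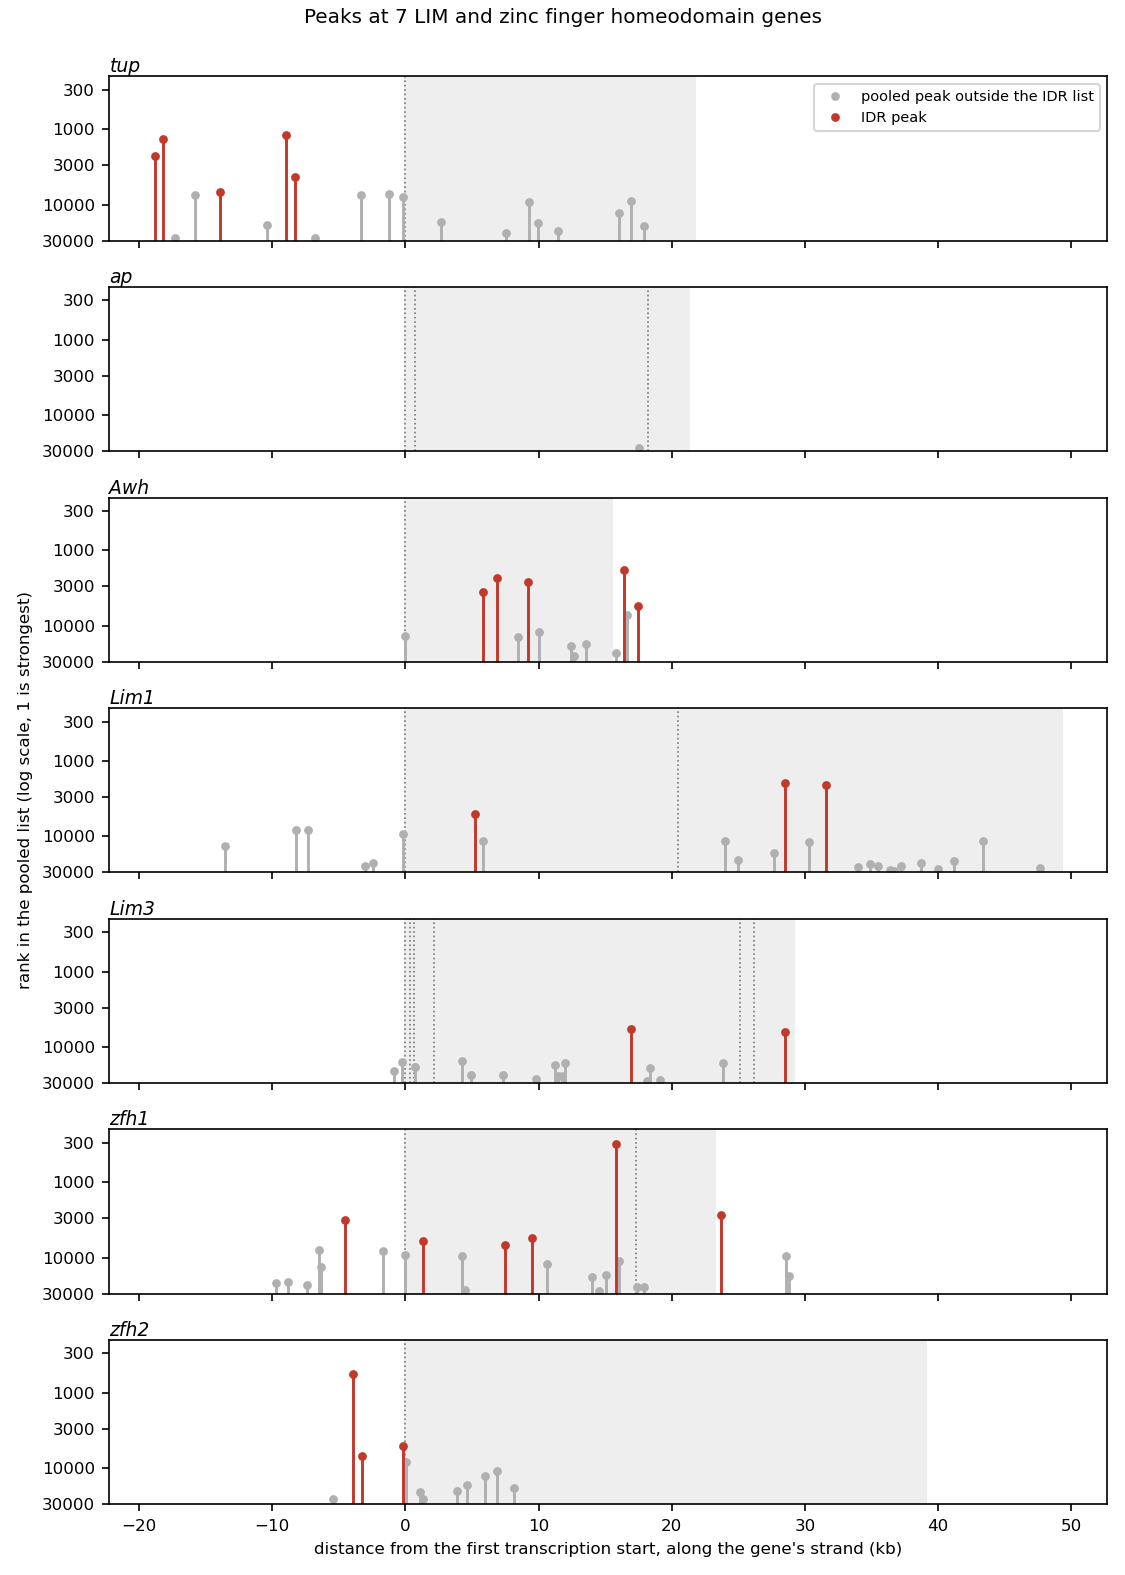
Peaks of the pooled list at each gene, by distance of the summit from the gene's first transcription start in kb along its strand (horizontal axis) and by rank (vertical axis, log scale, strongest at the top); red peaks are in the IDR list, grey ones are not, grey shading is the gene and dotted lines are annotated starts. The red peaks of tup all lie upstream of the gene, those of Awh in and beyond it, those of Lim1 and Lim3 inside it, and ap has a single weak grey peak.

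tup is known from germ-band retraction, from heart and dorsal muscle formation and from ventrally projecting motor neurons and serotonergic neurons. It lies on 2L from 18859507 to 18881261 on the minus strand, with 1 annotated start. Its 5 IDR summits were all upstream of that start and none was within the gene. The strongest, at 2L 18890145 to 18890413, was intergenic with its summit 8996 bp upstream, at IDR rank 1196. In replicates 3, 4 and 5 it ranked 1155, 1183 and 1477. The next, at 2L 18899315 to 18899601, was 18216 bp upstream, at IDR rank 1352, and ranked 1342, 1080 and 1833. In each of the replicates these were the strongest pair of peaks of tup among the 5.

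The remaining tup peaks stood close to these or between them. The peak at 2L 18899964 to 18900200 (rank 2249; 2009, 2721 and 3001 in the replicates) had its summit inside the noncoding gene lncRNA:CR44739, 600 bp from that of rank 1352. The peak of rank 4251 was 740 bp from that of rank 1196 (3778, 5254 and 4927). That of rank 6810 lay inside lncRNA:CR44737, 13914 bp upstream, and was among the strongest 7176 of replicate 3 alone (6853, 8928 and 7818). No other protein-coding start was closer than 30269 bp to any of the 5, but starts of these noncoding genes were nearer than that of tup to every one of them. With starts of noncoding genes allowed to compete, tup was left with 0 summits, and with a distance limit of 5 kb likewise 0.

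Awh is known from the formation of the abdominal histoblasts and of salivary gland imaginal cells. It lies on 3L from 3846206 to 3861692 on the plus strand, with 1 annotated start. Its strongest peak, at 3L 3862511 to 3862756, was intergenic and past the end of the gene, 16431 bp downstream of the start, at IDR rank 1832. It ranked 1896, 1840 and 2057 in replicates 3, 4 and 5 (1931 ± 113, SD, n = 3). A peak of rank 5391 lay 1003 bp further on (6360, 4778 and 6416). The start of the noncoding gene lncRNA:CR45379 was nearer to both than that of Awh, at 1787 and 784 bp. With starts of noncoding genes allowed to compete, or with a limit of 5 kb, both peaks were lost and Awh had 3 summits, so its strongest peak and its density of 1.75 rest on the rule of assignment.

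The other Awh summits were all in the first intron of Awh-RA, which is 11194 bp long. The peak at 3L 3852930 to 3853156 (rank 2348) had its summit 6843 bp from the start, that at 3L 3855234 to 3855525 (rank 2644) 9212 bp and that of rank 3516 5812 bp. Their ranks were 2218, 2291 and 2964, then 3554, 2657 and 2049, then 3000, 4641 and 4819 in replicates 3, 4 and 5. The order of these 3 peaks was not the same in each replicate: the peak 9212 bp in was the strongest of them in replicate 5 and the weakest in replicate 3.

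Lim1 is known from head development and from the antenna and distal leg. It lies on X from 8756539 to 8805804 on the minus strand and has 2 starts 20.5 kb apart. All 3 IDR summits were in introns. The peaks at X 8777175 to 8777432 (rank 1958; 1854, 2051 and 2366 in the replicates) and X 8774133 to 8774372 (rank 2058; 1745, 2269 and 2993) were both in the third intron of Lim1-RA, 8055 and 11109 bp downstream of the internal start of Lim1-RB. The peaks changed order between replicates, the one nearer to the start being the weaker in replicate 3 and the stronger in replicates 4 and 5. The remaining peak, at X 8800472 to 8800663 in the first intron 5219 bp from the first start, was at rank 5125 and varied more (3892, 7816 and 6179). Lim1 had 22 further pooled peaks outside the IDR list, and 15 of these were in introns. This was the highest count of the 7 genes, but in the longest catchment, 65525 bp, whereas Lim3 had 15 such peaks in 30035 bp.

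Lim3 is known from motor neurons and, with the Islet protein Tup, from setting which nerve branch their axons take. It lies on 2L from 19079256 to 19108427 on the minus strand, with 6 starts. Its peak at 2L 19091398 to 19091572 was in the second intron of Lim3-RB, at IDR rank 5731. It ranked 4622 and 5603 in replicates 3 and 4 but 13515 in replicate 5, the widest spread of any of the 24 (SD 4876 ranks). The other peak, at 2L 19079742 to 19080105 and rank 6429 (7074, 5750 and 7489), had its summit in the 3′ UTR, 896 bp from the start of CG10700, the nearest coding start, so it counts for Lim3 by position inside the gene alone. When peaks were required to be among the strongest of both other replicates instead of in the IDR list, Lim3 had 0 summits without replicate 3 or without replicate 4, and 2 without replicate 5. The strongest of its 15 pooled peaks outside the IDR list, at 2L 19103986 to 19104349, lay in an intron with its summit 2107 bp past the nearest own start and had rank 15436 (21258, 22208 and 10638).

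ap is known as the gene that gives the wing its dorsal identity, and from embryonic interneurons and muscles. It lies on 2R from 5706202 to 5727525 on the minus strand, with 3 starts and a catchment of 35038 bp. No IDR summit was assigned to it. The IDR summits nearest to the gene on either side were 16120 bp away, in an intron of scaf, and 290080 bp away, in the promoter of Pngl. Its single pooled peak, at 2R 5709813 to 5710176, was intronic, 703 bp upstream of the internal start, at rank 26839 of 30000, with a −log10 q-value of 0.498. The replicate lists held 1, 6 and 6 peaks for ap, the best at ranks 17412, 19902 and 19154. Of these 13 peaks 3 overlapped a peak of another replicate, all at 1 place in an intron 3502 to 3770 bp upstream of the internal start, where replicates 4 and 5 had peaks and replicate 3 had none. A depth limit applies here: the lists end at 30000 peaks, so weaker enrichment at ap is not seen.

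zfh1 is known from the gonadal mesoderm, heart and muscle precursors and from motor axon exit. It lies on 3R from 30765926 to 30789202 on the plus strand, with 2 starts 17.3 kb apart. Its peak at 3R 30781617 to 30781935 was the strongest of the 24, at IDR rank 309. It ranked 284, 325 and 395 in replicates 3, 4 and 5 (335 ± 56.1, SD, n = 3). The summit was in the third intron of zfh1-RB, 1493 bp upstream of the internal start of zfh1-RA, and also within the noncoding gene asRNA:CR45189. Peak lists carry no strand, so the 2 genes cannot be told apart at this position.

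The next zfh1 peaks flanked the gene. One, at 3R 30789503 to 30789750 and rank 2697 (3499, 2918 and 2272), was just past its end. The other, at 3R 30761281 to 30761524 and rank 3135 (2948, 2941 and 4445), was 4552 bp upstream of the first start. The peak of rank 2697 was 6354 bp from the nearest own start, and another annotated start was nearer, at 2046 bp. With starts of all genes competing, or with a limit of 5 kb, that peak was lost and zfh1 had 5 summits. The other 3 zfh1 peaks were intronic, at ranks 5577, 6077 and 6735. That of rank 5577 was among the strongest 7176 of each replicate (6666, 6382 and 5447), that of rank 6077 of replicates 4 and 5 (9129, 6221 and 6076) and that of rank 6735 of replicate 3 alone (6366, 8785 and 8008).

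zfh2 is known from the wing hinge and leg and from the embryonic nervous system. It lies on chromosome 4 from 501810 to 540874 on the plus strand, with 1 annotated start. Although the gene is 39065 bp long, no IDR summit lay within it. The strongest peak, at 4 497724 to 498077, was intergenic, 3921 bp upstream, at IDR rank 560. It ranked 866, 402 and 543 in replicates 3, 4 and 5 (604 ± 238, SD, n = 3). A weaker one at 4 498504 to 498594, 673 bp away (rank 6840; 6992, 9854 and 5642) had its summit in the annotated INE-1 transposable element. The peak at 4 501443 to 501806 was the one promoter peak of the 24, its summit 185 bp upstream of the start, at rank 5142. It ranked 4047 and 4354 in replicates 4 and 5 and 8758 in replicate 3. With starts of noncoding genes, annotated transposable elements included, allowed to compete, 1 of the 3 remained with zfh2.

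**Figure D3:**
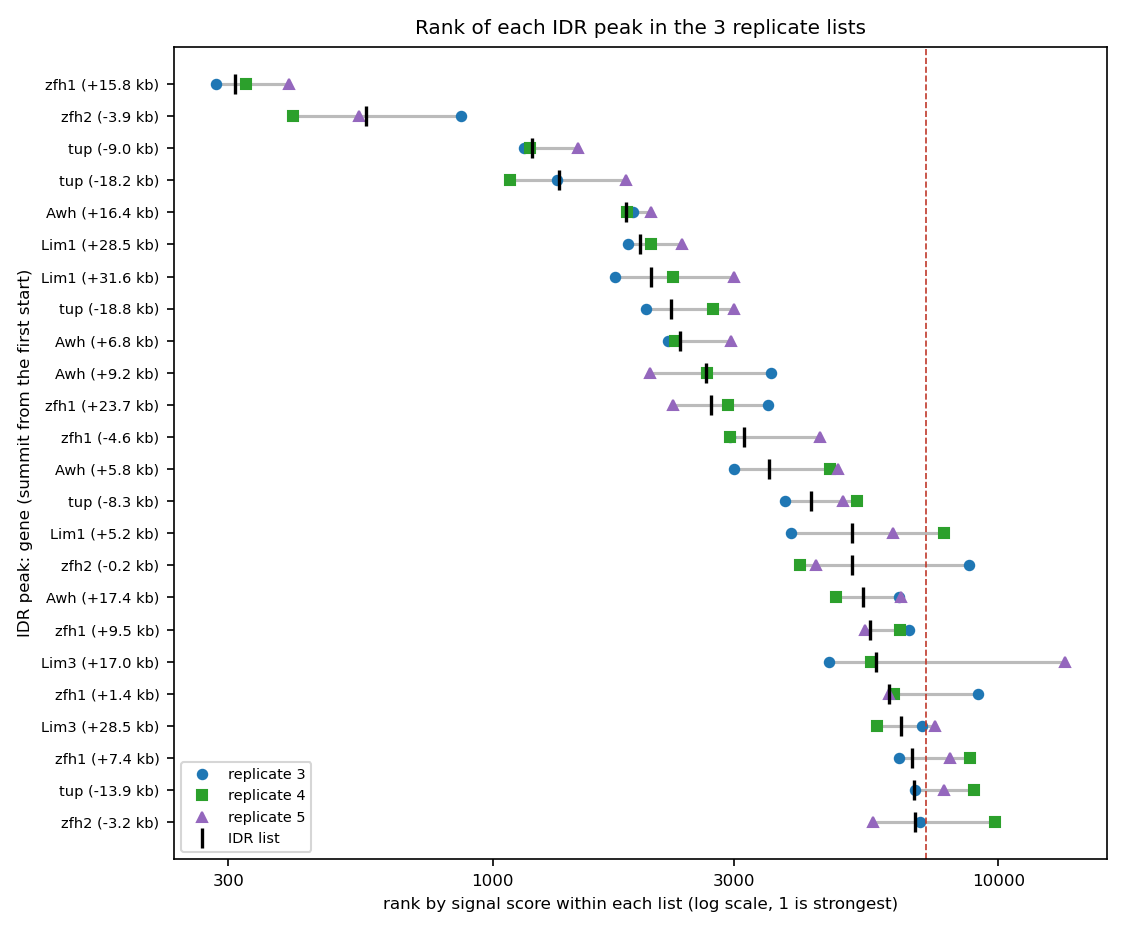
Rank of each of the 24 IDR peaks (rows, labelled with the gene and the distance of the summit from its first start in kb) in replicates 3, 4 and 5 and in the IDR list (horizontal axis, log scale, strongest at the left); grey lines join the lowest and highest replicate rank and the dashed line marks rank 7176. The 14 strongest peaks lie left of the line in all 3 replicates, and the Lim3 peak of rank 5731 reaches rank 13515 in replicate 5.

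Taking all 24 together, each had an overlapping peak in all 3 whole replicate lists, and 16 (66.7%) were among the strongest 7176 of each, against 70.4% of all IDR peaks. The count per replicate was 22, 20 and 20. Since the authors derived the IDR list from these same replicate lists, this is not an independent check. Across the 24 ranks Spearman's rho was 0.884 for replicates 3 and 4, 0.805 for 3 and 5, and 0.910 for 4 and 5, where all IDR peaks with a match gave 0.843, 0.827 and 0.847; these are correlations across peaks, which are not independent replicates. The replicate summits lay a median of 12 bp from the IDR summit and at most 79 bp from it. The 24 spread over the list, with 4, 9, 3 and 8 in successive equal parts of it from the strongest on and a median rank of 3326.

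The summits stood away from the starts of protein-coding genes. Their median distance from the nearest own start was 7636 bp, and 17 of the 24 were over 5 kb away, whereas all 7176 IDR summits had a median of 1296 bp to the nearest coding start and those outside promoters 3639 bp. Starts of noncoding genes and transposable elements could be closer: the own start was the nearest of any annotated gene for 12 of the 24, and a start of another kind lay 45 bp from the zfh2 summit of rank 6840, 333 bp from that of rank 560 and 417 bp from the tup summit of rank 2249. Of the 24, 11 (45.8%) were in introns, 8 (33.3%) intergenic, 3 (12.5%) inside an annotated noncoding RNA gene or transposable element, 1 (4.17%) in a 3′ UTR and 1 (4.17%) in a promoter, here within 500 bp of a coding start. Of all IDR summits 41.6% were in introns, near the share at the 7 genes. Promoters took 36.7%, intergenic DNA 17.4%, noncoding genes or transposable elements 2.37% and 3′ UTRs 1.00%. In the replicates' strongest peaks the promoter share was 3.10% ± 2.69 at the 7 genes and 38.6% ± 1.54 over all (SD, n = 3). The intergenic share was 37.9% ± 3.07 and 16.9% ± 0.831. The replicates largely repeat the same peaks, so these SDs describe how alike the lists are. They do not measure the uncertainty of a share over so few peaks. The members have long catchments, and no comparison matched for this was made. The intergenic share also rests on the rule of assignment. With starts of noncoding genes and transposable elements competing, only the intergenic summit of zfh1 at rank 3135 stayed with its gene. A 5 kb limit kept that one and the zfh2 summit of rank 560. Of the 14 summits left when all starts competed, 78.6% were in introns.

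**Figure D4:**
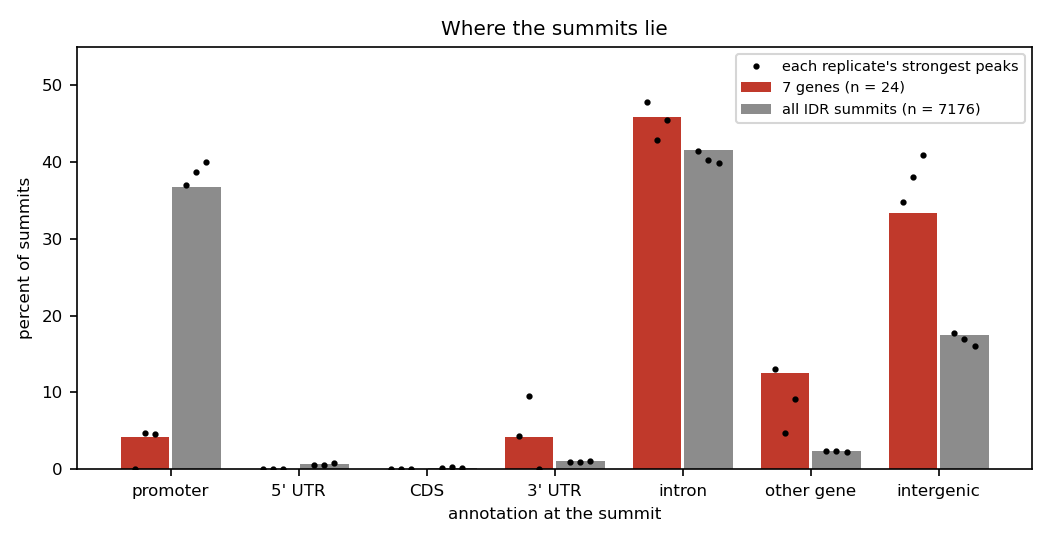
Share of IDR summits in percent (vertical axis) in each class of annotation (horizontal axis) for the 7 genes in red and for all IDR summits in grey; dots are the shares among the 7176 strongest peaks of each of the 3 replicates. The red promoter bar stands at 4.17% and the grey one at 36.7%, and for intergenic DNA the bars stand at 33.3% and 17.4%. The intergenic share of the 7 genes rests on the rule of assignment.

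Peaks at the starts themselves were weaker. The 7 genes have 16 distinct starts, of which 1, that of zfh2, had an IDR summit within 500 bp and 9 had a pooled summit. At tup the pooled peak 143 bp upstream of the start had rank 7837 (12783, 8359 and 8115 in the replicates). At zfh1 it lay 49 bp upstream with rank 9203 (13591, 8691 and 8876), and at Lim1 179 bp upstream of the first start with rank 9423 (11730, 10806 and 11644). At Awh it lay 6 bp upstream with rank 13750 (14803, 19046 and 14659). The pooled peaks at the upstream starts of Lim3 had ranks 15946 and 18422, and replicate 4 had none there.

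Outside the IDR list the 7 genes had 88 pooled peaks. Of these 42 (47.7%) overlapped a peak of every replicate, against 47.8% of all pooled peaks outside the list, 26 did so in 2 replicates, 16 in 1 and 4 in none. By position 58 (65.9%) were in introns, 19 (21.6%) intergenic, 8 (9.09%) in promoters, 2 in other genes and 1 in coding sequence. Over all pooled peaks outside the list 49.0% were in introns, 23.3% intergenic and 20.2% in promoters. At the boundary of the IDR list, the weakest IDR peak of the 7 genes, at zfh2, had pooled rank 6840, and the strongest peak left out, at Awh, had rank 7219 and overlapped the IDR peak of rank 1832. The next left out were at tup, at ranks 7288, 7435 and 7476, located 1193, 3328 and 15814 bp upstream. The 20 kb limit left out IDR summits at tup 20697 bp upstream (rank 6490), at Awh 22020 bp downstream (rank 4335) and at Lim1 29810 and 30403 bp from its nearest own start (ranks 5732 and 5445), while the farthest one inside it was that of tup at 18816 bp.

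Homeodomain words at the summits were at shares near those of the whole list. On either strand, TAATTA was in 4 of 24 windows (16.7%, against 11.4% of all IDR windows), CAATTA in 3 (12.5% and 11.2%) and the core TAAT, which lies within both, in 18 (75.0% and 80.2%). The TAATTA share was 14.3% without replicate 3, 10% without replicate 4 or without replicate 5, and 7.69% among the summits from the 3588 strongest IDR peaks. With windows of 100 bp on each side it was 20.8%, and other rules of assignment gave 12.5 to 17.4%. No matching share of all IDR windows is given for these settings, so they are not compared with the 11.4%. CAGGTG was in 1 (4.17% and 1.78%), that of the zfh2 peak of rank 560. CACACAC was in 3 (12.5% and 1.85%), at Lim1 (rank 1958), zfh1 (rank 5577) and Lim3 (rank 6429). TATCGATA, GAGAGAG and AGATAAG were in none, and in 0.920%, 1.02% and 1.78% of all IDR windows. Median GC content was 30.2% at the 24 summits, with a range of 19.8 to 53.5%, and 29.7% over all. With 24 windows, 1 window more or less moves a share by 4.17 percentage points, and no test of the shares was made.

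Among the proteins with which the LIM homeodomain family works, the gene for the bridging protein Chi had no peak in any list, in a catchment of 2421 bp. Ssdp had 2 IDR summits, the best at rank 2993 (2744, 3018 and 3143), and Bx (Beadex), whose LIM-only protein competes for Chi, had 7, the best at rank 1303 (1187, 1676 and 1261), in 71159 bp. CtBP, a corepressor that works with zfh1, had 1, at rank 3439 (3103, 4046 and 3922). The remaining LIM homeodomain genes on the list, CG4328 and Lmx1a, had neither an IDR nor a pooled summit, in catchments of 16290 and 15883 bp. Replicates 3, 4 and 5 held 3, 4 and 0 peaks for CG4328 and 0, 2 and 2 for Lmx1a. Of 5 further genes of the motor neuron code, HGTX (the fly Nkx6 gene) and eve had no IDR summit. The other genes, exex (the fly HB9 gene), vvl (a POU factor) and Oli (the fly Olig gene), had 2, 3 and 3. Catchments were 12133, 33456 and 18793 bp for exex, vvl and Oli, 7233 bp for Ssdp and 14796 bp for CtBP. For HGTX and eve they were 23778 and 8901 bp. Of all protein-coding genes 29.1% had an IDR summit, and of those with long catchments 60.6%. Whether the cofactor or motor neuron genes exceed genes of like catchment was not tested.

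Set beside other homeodomain classes, the 7 genes had 0.841 IDR summits per 10 kb of catchment, the 7 TALE class genes 0.933 and the 11 NK and Bar class genes 0.245. The density was 0.527 over all protein-coding genes and 0.448 over those with long catchments. The classes were uneven inside: hth held 20 of the 24 summits of the TALE class, and the 7 summits of the NK and Bar class were spread over 6 genes with at most 2 each. Replicate counts among the strongest 7176 were 18.3 ± 1.15 for hth and 5.00 ± 0.00 for zfh1 (SD, n = 3). unpg itself had 2 IDR summits in 7514 bp, the better at rank 3332. The differences between classes were not tested.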

How the data were processed

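Peak lists on dm6 were analysed for 3 biological replicates of unpg-GFP ChIP-seq (labels' descriptions). Per the file descriptions deposited with the lists, peaks were called by the authors for each replicate and for all replicates together against 1 shared control, and derived the IDR list from these. Which aligner, caller and IDR threshold were used is not given in the sources. The deposited signal score has no stated scale and gave ranks within 1 list. The deposited −log10 q-value had a ceiling of 4.37 in the pooled list, reached by every IDR peak, and gave no ranks. The deposited summit offset gave positions, written 1-based. The IDR list equals the 7176 strongest pooled peaks.

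Genes came from Ensembl release 115 (BDGP6) and sequence from the Release 6 RefSeq genome, whose arm lengths hold all peaks. A replicate's value for an IDR peak is its strongest peak sharing at least 1 bp. Annotation went in the order promoter, UTRs, coding sequence, intron, other gene, intergenic. Words were searched on both strands within 50 bp of summits. Python 3.11.15, numpy 2.4.6, pandas 2.3.3, scipy 1.17.1 and matplotlib 3.10.9 were used, and the assignment was tested on simulated data. With 1 group no test between conditions exists. All 7 genes are named, with the 3 best IDR peaks of each in full. Members and lists were chosen with earlier results of these data known. The list symbol CtBp was read as CtBP, and nkx6 as HGTX. Alternatives varied the assignment, overlap, peak set and windows.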

Additional observations from a re-analysis of the deposited data

How the results depend on the processing

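No paired analysis was possible because there is 1 group. Of 55 recomputed values, 31 moved by less than the spread between replicates (counts by at most 1.5 times) and 24 by more. For the share in all 3 replicates, the spread was that of the shares in each single replicate. For the rank SD it was that of the median rank differences between pairs of replicates. Both spreads are of a quantity unlike the value they judge. The causes were not tested beyond what each change does by construction. With starts of all genes competing, the 7 genes had 14 IDR summits, 78.6% in introns, 7.14% in promoters and 57.1% among the strongest peaks of all 3 replicates (24, 45.8%, 4.17% and 66.7% as reported). A 5 kb limit gave 16 summits, 68.75% in introns and 56.25% in all 3, and a 50 kb limit 39.3% and 60.7%. Restricting to the 3588 strongest IDR peaks gave 13 summits, 7.69% with TAATTA, 0% in promoters and 100% in all 3. Promoters of 1000 bp gave 8.33%. Reciprocal overlap of 50% put 50% in all 3, and whole replicate lists 100%. Leaving out 1 replicate in turn, and keeping pooled peaks among the strongest of both others, gave 20 to 21 summits at 5 to 6 genes, 10 to 14.3% with TAATTA, 42.9 to 45.0% in introns, 0 to 9.52% in promoters and 85.7 to 90.0% also among the strongest of the replicate left out. Depth is unknown and the lists end at 30000 peaks, which limits what is seen at ap.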
